A study of Homo sapiens with 14 samples.

Results

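The clustered protocadherins are cell adhesion proteins of the cadherin superfamily, encoded by the alpha, beta and gamma clusters that lie side by side on human chromosome 5. Their rows were chosen by name, as every row of the expression table with a symbol that begins with PCDHA, PCDHB or PCDHG, and 19 of 28869 rows met that rule. Of these, 18 each carried 1 beta symbol, 16 of protein-coding genes and 2 of the pseudogenes PCDHB17P and PCDHB18P, and 1 row carried 15 alpha symbols. No row carried a gamma symbol, so the 22 protein-coding gamma genes that RefSeq lists were not analysed here.

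The study measured RNA of WI-38 cells, a line of human lung fibroblasts, on 14 Affymetrix Gene 1.0 ST arrays, each reading 1 RNA sample. By their labels the arrays form 7 groups of 2, in order of passage: primary cells at passage 19, cells immortalized with hTERT and given the letter A at passages 39, 50, 58, 67 and 95, and immortalized cells given the letter B at passage 96. The immortalized groups are called by letter and passage, from A39 to A95 and B96. hTERT is the catalytic subunit of telomerase, which lets fibroblasts divide beyond their usual limit. The duplicates are called biological in the labels, without a statement that they came from separate cultures, so p-values measure only the spread between these RNA samples. The meaning of the letters, the promoter that drove hTERT and whether the immortalized cells were 1 clone are not stated in the labels.

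Clustered protocadherins are best known from neurons. There, each cell uses a small choice of isoforms, and matching isoforms bind each other across cell contacts, which lets a neuron tell its own branches from those of others. In the alpha and gamma clusters, variable first exons are spliced to shared constant exons, whereas each beta gene is a single exon with its own promoter. Methylation of these promoters goes with silence, and the insulator protein CTCF binds near many of them and loops them to a distant enhancer.

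Some arrays did not follow their labels, which bears on every comparison between groups. The TERT row stood at 7.07 log2 on the array labelled primary replicate 1 but at 11.7 on the array labelled primary replicate 2, where the hTERT arrays lay between 10.67 and 12.18. Over all rows other than the protocadherins, 0 of 14 arrays correlated best with the array that shares its label. In 5 pairs each array was the other's closest match, namely the second primary array and the first of A39, the second of A39 and the first of A50, the second of A50 and the first of A58, the second of A58 and the first of A67, and the second of A95 and the first of B96. In each of these pairs the partner was the next array in label order. Whether arrays and labels were matched as deposited could not be settled from the files, so every group mean and comparison below takes the labels as given and would change if they were offset. Pearson's r was 0.986 to 0.993 in these 5 pairs and 0.945 to 0.983 in the 7 pairs that share a label. The arrays A95 replicate 2 and B96 replicate 1 also stood apart in scale, with an SD over all rows of 1.89 and 1.91 log2 against 1.98 to 2.03 on the other 12. Of 12 fibroblast markers, COL1A1 at 12.59 to 13.36 and VIM at 12.55 to 13.09 were high on every array. LUM reached down to 9.15 on A95 replicate 2 and S100A4 to 6.89 and 6.26 on A95 replicate 2 and B96 replicate 1. COL3A1 was lowest on A58 replicate 2 at 10.0 and stood at 11.29 and 11.34 on A95 replicate 2 and B96 replicate 1.

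Nearly all listed promoters of the beta genes shared a short sequence, shown here. PCDHB1, the one listed gene that lacks it, was also the beta row with the narrowest range. That is 1 gene with a dim row (mean 5.87 log2), and PCDHB7, which has the sequence, ranged over only 1.43 log2. A link between sequence and range was not tested. RefSeq promoters, each 250 bases before to 50 bases after an annotated start on GRCh38.p14, were found for 14 of the 18 beta symbols and not for PCDHB6, PCDHB11, PCDHB17P and PCDHB18P. The element GGCGCT, searched on both strands, was present in 13 of these 14 promoters (92.9%), against 21.7% of all 35116 promoters. Each of the 13 carried it on the gene's own strand, between 81 bases before the annotated start and just past it, with a median of 63 bases before. In the 36-base windows below, all on the plus strand of chromosome 5, capitals mark the element.
PCDHB2, chr5:141094546-141094581: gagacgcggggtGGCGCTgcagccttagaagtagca
PCDHB3, chr5:141100395-141100430: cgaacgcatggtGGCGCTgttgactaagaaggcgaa
PCDHB4, chr5:141121725-141121760: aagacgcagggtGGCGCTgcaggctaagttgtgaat
PCDHB5, chr5:141135181-141135216: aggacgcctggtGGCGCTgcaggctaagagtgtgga
PCDHB7, chr5:141172568-141172603: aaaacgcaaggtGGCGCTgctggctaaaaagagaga
PCDHB8, chr5:141177779-141177814: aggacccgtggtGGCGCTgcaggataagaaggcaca
PCDHB16, chr5:141182312-141182347: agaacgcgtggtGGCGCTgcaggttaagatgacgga
PCDHB9, chr5:141187076-141187111: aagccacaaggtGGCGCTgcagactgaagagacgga
PCDHB10, chr5:141192301-141192336: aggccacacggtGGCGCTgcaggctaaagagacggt
PCDHB12, chr5:141208645-141208680: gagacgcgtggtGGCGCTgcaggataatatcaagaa
PCDHB13, chr5:141213867-141213902: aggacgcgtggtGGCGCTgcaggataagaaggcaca
PCDHB14, chr5:141223265-141223300: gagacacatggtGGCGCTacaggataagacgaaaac
PCDHB15, chr5:141245316-141245351: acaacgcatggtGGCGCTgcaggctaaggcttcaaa
The 3 bases before the element were ggt in every window, and 8 of the 30 flanking bases were the same in all 13. The 9 bases formed by ggt and the element occurred in 0.501% of all promoters. The promoter of PCDHB1, the one of 14 with no match, has at chr5:141051348-141051356 the stretch ggtggTgct, which differs from the shared 9 bases by C6T, counted from 1 at their 5′ end. Its last 6 bases start 23 bases before the annotated start, within the span where the other promoters carry the element, and 12.2% of all promoters hold the 9 bases or a version with 1 base changed. The search for that near match was made after the windows had been seen.

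A motif core of CTCF was searched on either strand, spelled CC, 3 bases of any kind, AG, 2 bases of any kind and GGC. It was found in 1 of the 14 beta promoters, that of PCDHB9, and in 10.6% of all promoters. In PCDHB9 it overlapped the element, whose first 3 bases are the GGC that ends the core. Other spellings of the CTCF motif were not searched, so the count does not give the share of promoters that CTCF can bind. The beta promoters held a median of 7.5 CpG sites (5 to 12), against 14 over all promoters. Relative to base composition the difference ran the other way, with a median observed over expected CpG of 0.63 in beta promoters and 0.58 in all. Of 13 alpha promoters listed, 1 held GGCGCT. A match is a description of letters, and methylation and binding were not measured on these arrays.

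Most beta rows differed widely between the arrays. A range of 2 log2 or more, which is 4-fold on the linear scale, was seen in 15 of 18 beta rows, against 6.64% of all rows. Those just inside and just outside that limit were PCDHB17P at 2.09 and PCDHB18P at 1.60, followed by PCDHB7 at 1.43 and PCDHB1 at 0.95. The median over the 18 beta rows ran from 5.77 log2 on primary replicate 1 to 8.63 on A95 replicate 2. In bulk RNA, more cells using a gene and more RNA per cell cannot be told apart.

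**Figure D1:**
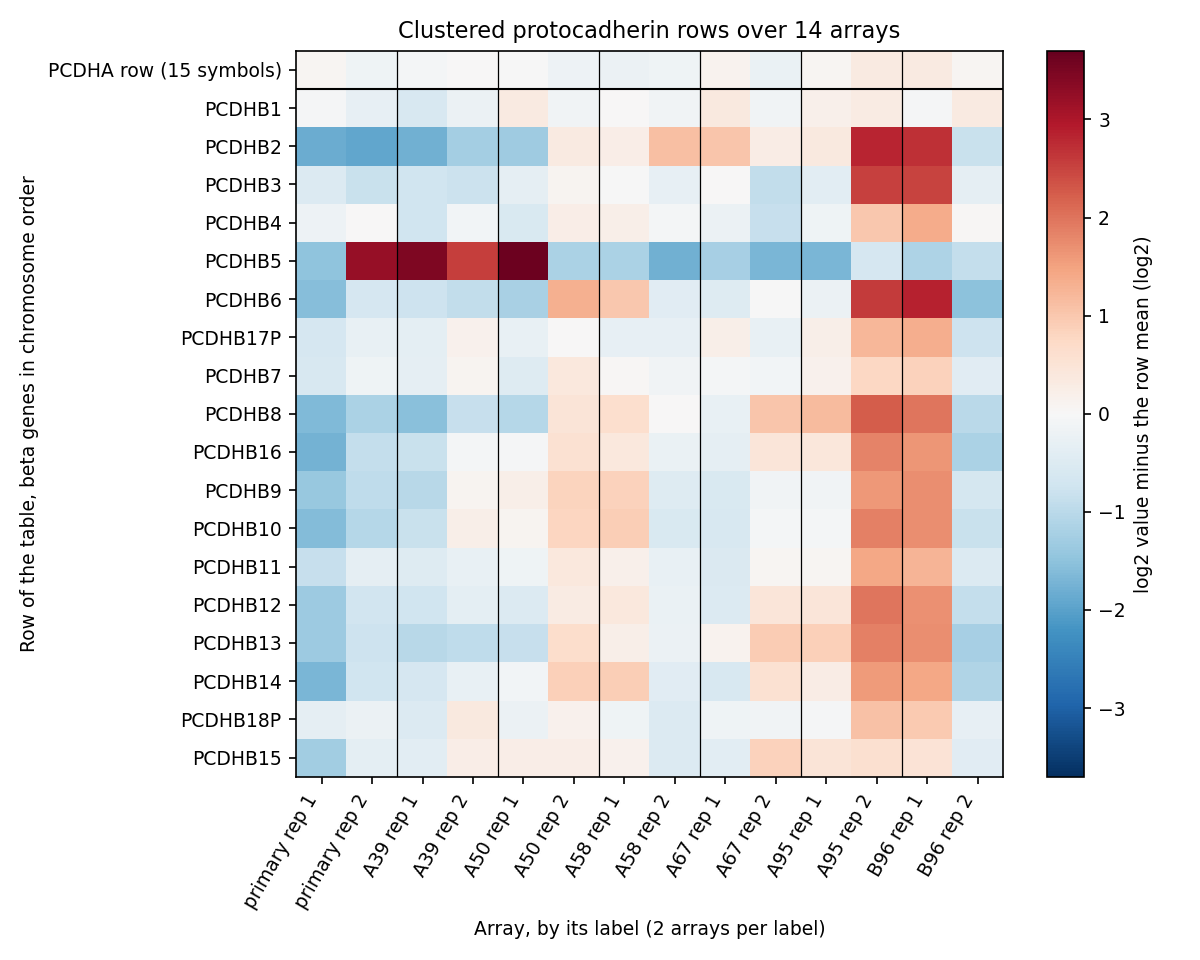
Level of each protocadherin row on each of the 14 arrays, as the log2 difference from that row's own mean over the arrays (colour, red above and blue below), with rows in chromosome order from the alpha row through PCDHB1 to PCDHB15 and arrays in order of passage. At least 14 of 18 beta rows are above their means on A50 replicate 2, A58 replicate 1, A95 replicate 2 and B96 replicate 1, and PCDHB5 is above its mean on 4 earlier arrays.

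The beta rows stood highest on A95 replicate 2 and B96 replicate 1. Both of these arrays lay above all other 12 in 15 of 18 beta rows, all but PCDHB1, PCDHB5 and PCDHB15, and in the alpha row, against 16% of all rows. The array labelled primary replicate 1 lay below all other 13 in 11 of 18 beta rows, against 7.43% of all rows. A50 replicate 2 and A58 replicate 1 formed a second high point, with 16 and 14 of 18 beta rows above their own means, and a beta median of 7.52 and 7.32 log2. The arrays with which these share a label were lower, with 5 of 18 rows above their means on A50 replicate 1 and 2 on A58 replicate 2. By the beta median, A67 replicate 2 and A95 replicate 1 stood nearly as high as A58 replicate 1, at 7.295 and 7.285 log2. On these arrays 8 and 11 of 18 beta rows were above their own means.

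Without A95 replicate 2 and B96 replicate 1, 10 of 18 beta rows still ranged over 2 log2 or more, against 3.96% of all rows. These 10 were PCDHB2, PCDHB5, PCDHB6, PCDHB8, PCDHB9, PCDHB10, PCDHB13, PCDHB14, PCDHB15 and PCDHB16. The range of the beta median was 1.75 log2 over the 12 arrays, against 2.86 over all 14.

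PCDHB2, the first beta gene to carry the element, had the widest range after PCDHB5. It stood at 5.75 and 5.66 log2 on the primary arrays, 5.80 and 6.31 on A39, 6.27 and 7.90 on A50, 7.83 and 8.70 on A58, 8.60 and 7.86 on A67, 7.95 and 10.40 on A95, and 10.29 and 6.74 on B96. Its highest values, 10.40 and 10.29, were on A95 replicate 2 and B96 replicate 1, whose duplicates stood at 7.95 and 6.74.

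PCDHB6 lies next to PCDHB5 on the chromosome but correlated with PCDHB16, among others, at r = 0.90 over the 14 arrays. Its values were 4.92 and 5.86 log2 on the primary arrays, 5.72 and 5.59 on A39, 5.30 and 7.82 on A50, 7.50 and 6.06 on A58, 6.02 and 6.48 on A67, 6.27 and 9.07 on A95, and 9.33 and 4.97 on B96. The levels 9.07 and 9.33 on A95 replicate 2 and B96 replicate 1 were the 2 highest, and B96 replicate 2 was nearly as low as primary replicate 1, the lowest array.

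PCDHB3 showed little variation outside the arrays that stand apart. It measured 8.36 and 8.31 log2 on A95 replicate 2 and B96 replicate 1 and between 4.91 and 5.93 on the other 12. PCDHB4, the dimmest row by mean at 4.90 log2, measured 5.91 and 6.28 on those 2 arrays and 4.04 to 5.14 elsewhere.

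PCDHB8 and PCDHB13, separated on the chromosome by 5 other beta genes, had nearly the same course. PCDHB8 measured 5.51 and 5.97 log2 on the primary arrays, 5.58 and 6.28 on A39, 6.07 and 7.62 on A50, 7.76 and 7.15 on A58, 6.86 and 8.16 on A67, 8.31 and 9.38 on A95, and 9.12 and 6.14 on B96. PCDHB13 measured 5.25 and 5.84 on the primary arrays, 5.57 and 5.66 on A39, 5.74 and 7.25 on A50, 6.82 and 6.39 on A58, 6.72 and 7.54 on A67, 7.48 and 8.45 on A95, and 8.32 and 5.36 on B96. Both rows correlated at r = 0.98 over the 14 arrays, and in both the A95 arrays lay above the A39 arrays without overlap.

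The brightest beta rows by mean were PCDHB16 at 8.32 log2, PCDHB10 at 8.17 and PCDHB9 at 8.02, and the dimmest after PCDHB4 were PCDHB3 at 5.82 and PCDHB1 at 5.87. Levels of different rows come from different probes and do not rank the genes by transcript amount. PCDHB9 and PCDHB10, which are neighbours, had the highest correlation of any member pair, r = 0.99, yet differed by up to 0.43 log2 on an array. No member had the same values as another row on all 14 arrays, although 957 rows of the table did. Whether probes match several of these similar genes was not tested.

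PCDHB5 took a course unlike the rest of its cluster. It was at 10.58 log2 on primary replicate 2, at 10.80 and 9.91 on A39 and at 10.99 on A50 replicate 1, and it lay between 5.57 and 6.75 on the other 10 arrays. No array fell in the 3.16 log2 between these levels. The step ran inside 2 labels, with primary replicate 1 at 5.86 against 10.58 on its duplicate, and A50 replicate 2 at 6.20 against 10.99 on its duplicate. PCDHB5 carries the same element as the other beta promoters, and its full RefSeq promoter, chr5:141134956-141135255 on the plus strand of GRCh38.p14, is given with the element in capitals because no other member had this course.
PCDHB5: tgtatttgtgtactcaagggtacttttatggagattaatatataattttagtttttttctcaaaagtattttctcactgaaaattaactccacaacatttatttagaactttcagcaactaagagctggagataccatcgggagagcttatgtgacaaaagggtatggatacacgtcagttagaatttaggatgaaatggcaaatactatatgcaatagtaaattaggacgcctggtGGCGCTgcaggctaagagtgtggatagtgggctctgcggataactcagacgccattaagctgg
On these 4 arrays the other 17 beta rows had median deviations from their own means of -0.71, -0.74, -0.21 and -0.26 log2. On the other 10 arrays, where PCDHB5 was low, the medians ran from -1.33 to 1.65, so the 2 sets of arrays overlapped. A58 replicate 2 and A67 replicate 1, at -0.26 and -0.28, were about as low as A50 replicate 1.

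**Figure D2:**
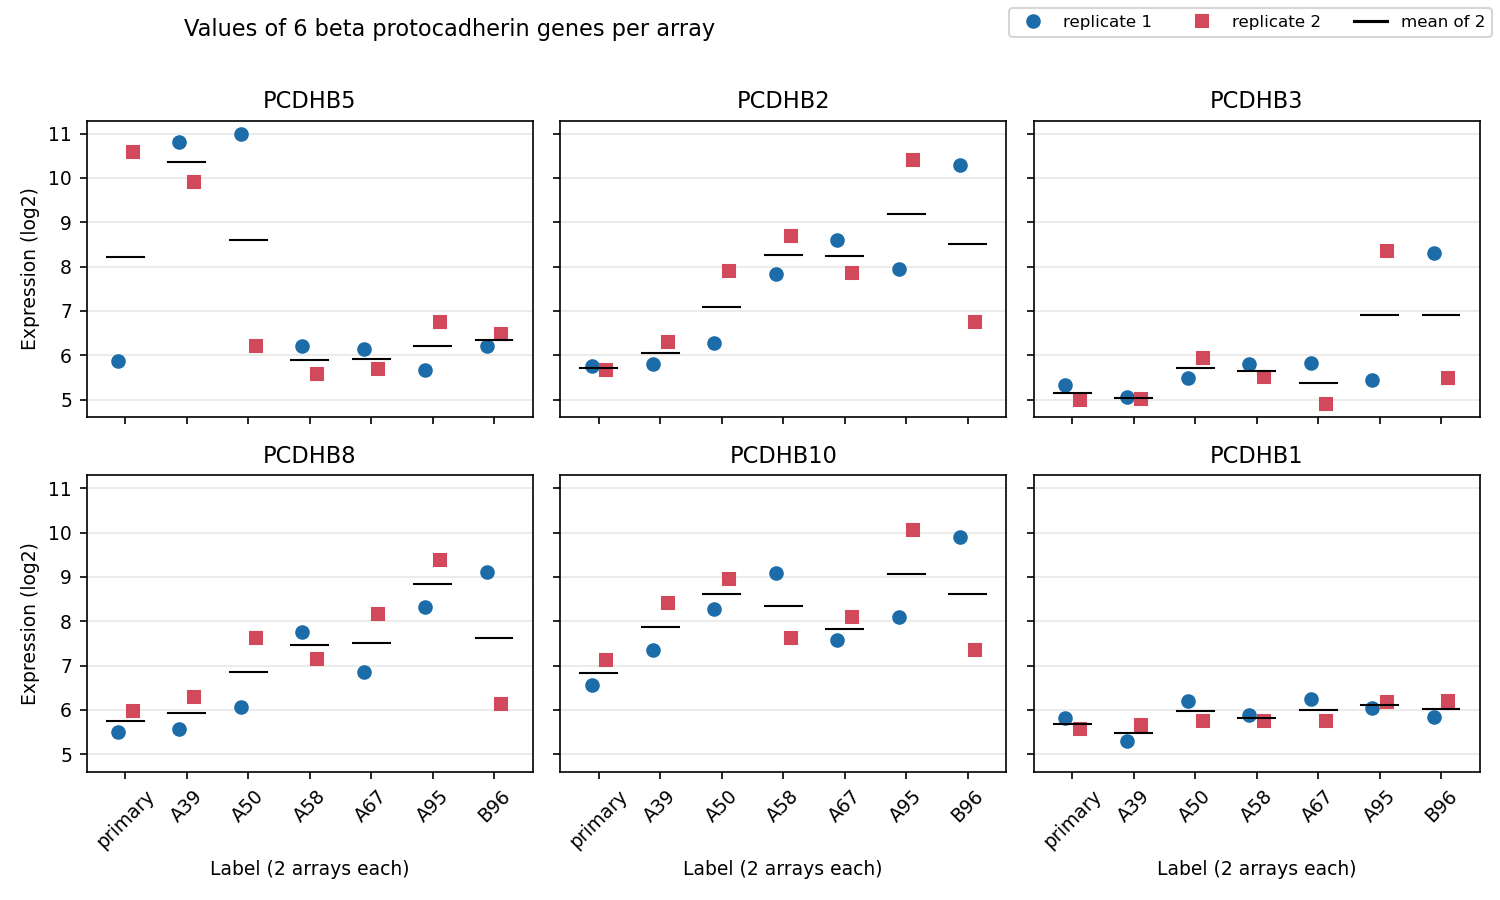
Level (log2) of 6 beta genes on each of the 14 arrays, one panel per gene, with labels in order of passage, circles for replicate 1, squares for replicate 2 and a bar at the mean of both. PCDHB5 shows 4 arrays at 9.91 to 10.99 and the rest at 5.57 to 6.75, the panels of PCDHB2, PCDHB3, PCDHB8 and PCDHB10 are highest on A95 replicate 2 and B96 replicate 1, and PCDHB1 stays between 5.29 and 6.24.

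PCDHB1, the first gene of the cluster, was nearly flat, between 5.29 and 6.24 log2 over all 14 arrays. PCDHB15, at the other end, measured 7.22 and 6.84 log2 on A67 replicate 2 and A95 replicate 1 and 6.96 and 6.88 on A95 replicate 2 and B96 replicate 1. It was lowest on primary replicate 1 at 5.07. The remaining rows, PCDHB9, PCDHB10, PCDHB11, PCDHB12, PCDHB14, PCDHB16 and PCDHB17P, had ranges of 2.09 to 3.57 log2, and each was highest on A95 replicate 2 or B96 replicate 1.

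Pairs of beta rows were compared across the 14 arrays as a description, since the arrays share cells, passages and the pair that stands apart. The median Pearson's r was 0.84 over the 120 pairs without PCDHB1 and PCDHB5 (0.23 to 0.99) and 0.61 when the 12 other arrays were used. PCDHB5 correlated below 0 with each of the other 17 beta rows, with a median of -0.30, and with 15 of 17 over the 12 arrays. PCDHB1 had a median r of 0.23 with the others. Among the 120 pairs without PCDHB1 and PCDHB5, the 14 neighbouring ones had a median of 0.90 and the 106 others 0.83. Over the 12 arrays these were 0.78 and 0.59. The neighbouring pairs left out had r of 0.40 (PCDHB1 and PCDHB2), -0.31 (PCDHB4 and PCDHB5) and -0.34 (PCDHB5 and PCDHB6).

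The alpha row, whose 15 symbols run from PCDHA1 to PCDHA13 with the C-type isoforms PCDHAC1 and PCDHAC2, stayed between 6.23 and 6.83 log2. It cannot tell one alpha isoform from another, and the C-type isoforms have no row of their own. Its 2 highest values, 6.83 and 6.82, were on A95 replicate 2 and B96 replicate 1. Its median r with the beta rows was 0.40 over 14 arrays and -0.38 over the 12.

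The first comparison sets the arrays labelled A39 against those labelled primary, and no protocadherin row passed the test. These labels differ in both hTERT and passage, 39 against 19, so their effects cannot be told apart. Across all rows, limma called 0 of 28869 at an adjusted p under 0.05, and 347 (1.2%) had an unadjusted p under 0.05, or 0.7% with A39 higher, none of them a member. A39 lay above primary without overlap in 4 of 18 beta rows (PCDHB2, PCDHB10, PCDHB14 and PCDHB16), against 15% of all rows, and below it in 0, against 12.8%. The difference was above 0 in 15 of 18 beta rows, against 55.2% of all rows, with a median of 0.30 log2 against 0.03. The highest difference was that of PCDHB5, at a mean of 10.36 log2 in A39 and 8.22 in primary, a difference of 2.14 ± 1.52 (SE, n = 2 arrays each, limma adjusted p = 1). The lowest was that of PCDHB4, at 4.48 in A39 and 4.82 in primary. Without primary replicate 2, whose TERT level goes against its label, PCDHB5 differed by 4.50 (limma adjusted p = 0.966), and without primary replicate 1 by -0.23.

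The second comparison sets passage 95 against passage 39 in the cells labelled A. The A95 arrays lay above the A39 arrays without overlap in 13 of 18 beta rows, against 22.7% of all rows, and below in 1, PCDHB5, against 15.4%. The fitted difference was above 0 in 17 of 18 beta rows, against 58.6% of all rows, with a median of 1.20 log2 against 0.07. None passed the test, since limma called 0 of 28869 rows at an adjusted p under 0.05. At an unadjusted p under 0.05 stood 9.21% of all rows, or 4.88% with A95 higher, and 6 of 18 beta rows, of which PCDHB1, PCDHB2, PCDHB8, PCDHB12 and PCDHB13 were higher in A95 and PCDHB5 was lower.

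PCDHB2 had the highest difference, 9.18 log2 in A95 and 6.06 in A39, or 3.12 ± 1.05 (SE, n = 2 arrays each). PCDHB8 differed by 2.92 ± 0.86 and PCDHB13 by 2.35 ± 0.81. PCDHB5 had the lowest, 6.21 in A95 and 10.36 in A39, or -4.15 ± 1.52. The limma adjusted p of the beta rows ran from 0.528 to 0.637. A95 replicate 2 carried much of this difference: without it the beta median was 0.50 log2 and PCDHB2 differed by 1.90, whereas without A95 replicate 1 the beta median was 2.04. PCDHB5 differed by -4.70 without A95 replicate 2. The alpha row differed by 0.26 ± 0.19 (limma adjusted p = 0.625). The fibroblast markers held 0 calls, where 0 of 28869 rows were called. Their difference was above 0 in 1 of 12, against 58.6% of all rows, with a median of -0.43 log2 against 0.07. At an unadjusted p under 0.05, 4 of 12 were lower, against 9.21% of all rows in either direction. Their mean level was 11.34 to 11.70 on the A95 arrays and 11.98 to 12.19 on the A39 arrays. Their part in the beta differences was not tested.

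**Figure D3:**
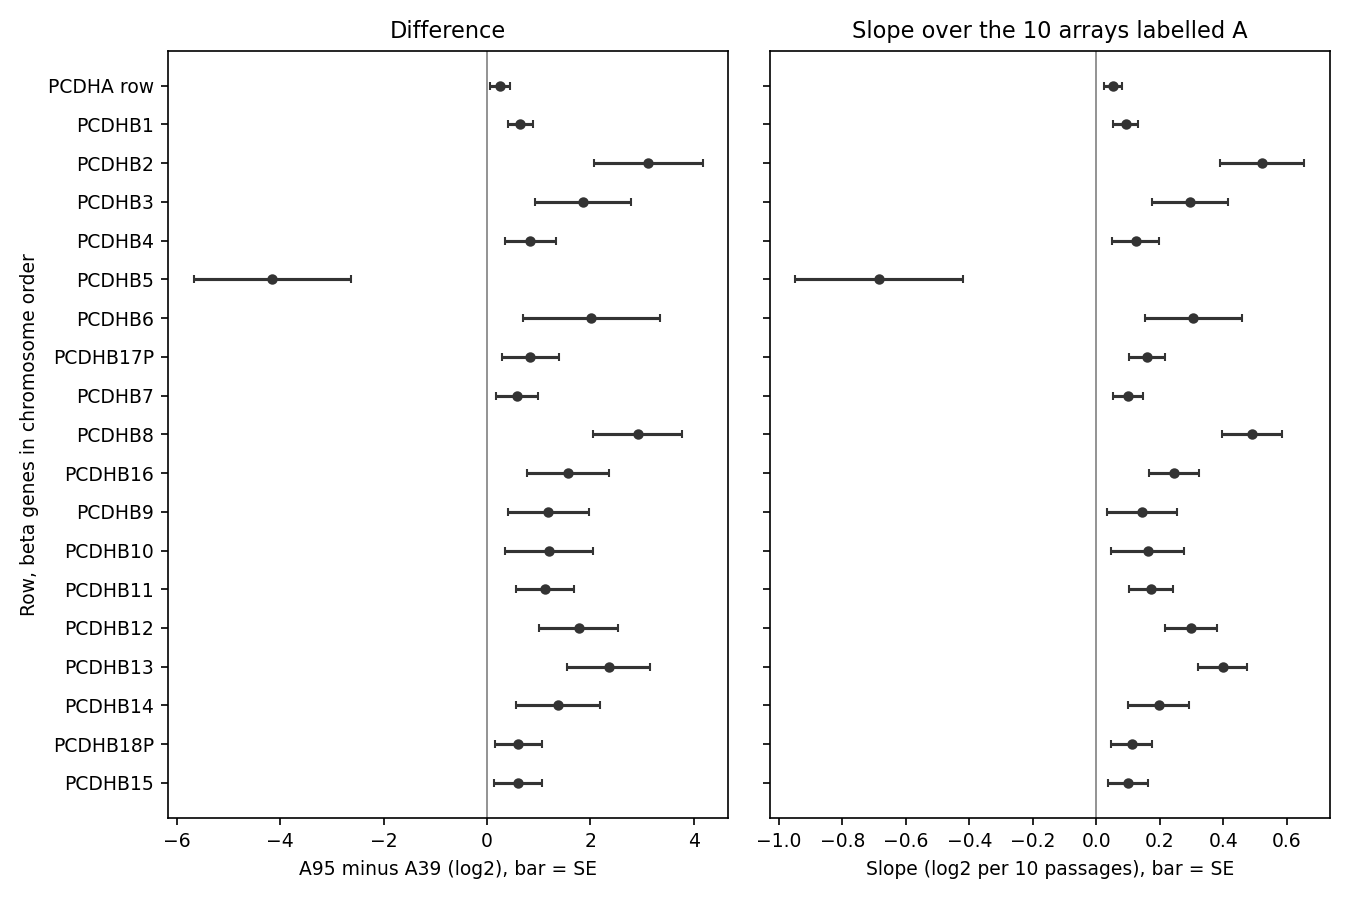
Fitted difference A95 minus A39 (log2, left) and slope over passage in the 10 arrays labelled A (log2 per 10 passages, right) for the alpha row and the 18 beta rows in chromosome order, with bars for the standard error. Both lie above 0 for 17 of 18 beta rows and below 0 for PCDHB5.

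The third comparison sets the B cells at passage 96 against the A cells at passage 95. The ranges of B96 and A95 overlapped in all 18 beta rows, where 9.83% of all rows were higher in B96 without overlap and 9.84% lower. The difference was above 0 in 2 of 18 beta rows, PCDHB4 and PCDHB5, against 48.9% of all rows, was 0 in PCDHB3 and below 0 in 15, with a median of -0.45 log2 against -0.01 over all rows. PCDHB8 was lowest, at 7.63 log2 in B96 and 8.85 in A95, and PCDHB4 highest, at 5.61 in B96 and 5.32 in A95. No row of the table passed the test, and 0 members had an unadjusted p under 0.05, against 2.28% of all rows in either direction and 1.38% with B96 higher. The direction depended on single arrays, since the beta median was -1.45 without B96 replicate 1, -1.25 without A95 replicate 1, 0.19 without A95 replicate 2 and 0.51 without B96 replicate 2. Without both A95 replicate 2 and B96 replicate 1 it was -0.82.

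Over the course of passages in the 10 arrays labelled A, 9 of 18 beta rows had a positive slope and 1, PCDHB5, a negative one at an unadjusted p under 0.05, against 18.7% of all rows in either direction and 9.89% in the positive one. No member passed at an adjusted p under 0.05, which 81 rows (0.281%) did. PCDHB8 came closest, at 0.49 ± 0.094 log2 per 10 passages (SE, limma adjusted p = 0.0581), with PCDHB13 at 0.40 ± 0.078 (limma adjusted p = 0.0581). PCDHB2 had a slope of 0.52 ± 0.13 (limma adjusted p = 0.098) and PCDHB5 of -0.68 ± 0.26 (limma adjusted p = 0.213). The slope was positive in 17 of 18 beta rows, against 58.5% of all rows, with a median of 0.17 against 0.01. The fit takes the 10 arrays as independent, although 3 of the closest pairs lie among them at neighbouring passages. Without A95 replicate 2 the beta median was 0.07 and 0 rows of the table passed. Without A95 replicate 1 it was 0.27, and PCDHB2, PCDHB8 and PCDHB13 passed among 571 rows (limma adjusted p = 0.0237, 0.035 and 0.0328).

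PCDHB8 and PCDHB13 also passed in the passage trend after each array was centred on its median (limma adjusted p = 0.0417 and 0.0469) and after dim rows were left out (0.0417 and 0.0421). Centring called 429 rows of the table and leaving out dim rows 271, against 81 in the fit as reported. With passage as a random block, PCDHB2, PCDHB8 and PCDHB13 passed (0.0456, 0.0229 and 0.0251), and so they did with the ranks of passage (0.0498, 0.0361 and 0.0337). The random block called 729 rows and the ranks 489, and the block rested on a within-passage correlation of -0.16. With quantile normalization and with the intensity trend and robust prior, 0 protocadherin rows passed, although 159 and 132 rows of the table did. The alpha row had a slope of 0.05 ± 0.029 (limma adjusted p = 0.338). A limma F test over the 7 groups called 0 of 28869 rows, with 4.62% of all rows and 0 members at an unadjusted p under 0.05, and gave the beta rows adjusted p-values of 0.943 to 0.965.

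Beta rows, like all rows, differed more between arrays of a label than between arrays that matched best. The best matches were picked for being alike over the other rows, so over all rows this outcome is built in. The beta rows were held out of that choice, yet part of their outcome may still follow from it. Over all rows the median absolute difference was 0.19 to 0.33 log2 between arrays of a label and 0.10 to 0.16 in the closest pairs. The median absolute difference over the beta rows was 0.49 to 2.47 log2 between the arrays of a label, and 1 to 15 of 18 beta rows differed there by 1 log2 or more, against 1.58% to 9.58% of all rows. In the 5 closest pairs, found without the protocadherin rows, the beta rows' median absolute difference was 0.14 to 0.23 log2. There 0 or 1 beta row differed by 1 log2 or more, against 0.54% to 1.25% of all rows. The B96 arrays differed most, in 15 of 18 beta rows, with PCDHB6 4.36 log2 apart. Why arrays of different labels were closest was not tested.

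**Figure D4:**
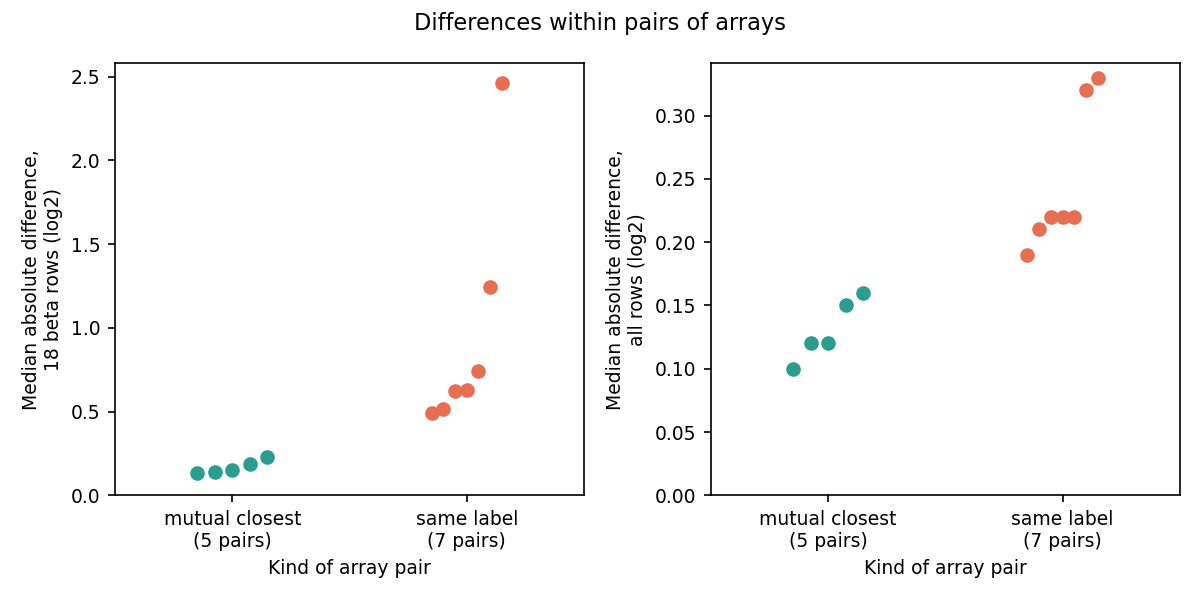
Median absolute difference between 2 arrays over the 18 beta rows (log2, left) and over all rows (log2, right), one point per pair, for the 5 pairs of mutual closest arrays and the 7 pairs that share a label. For the beta rows the closest pairs lie at 0.14 to 0.23 and the label pairs at 0.49 to 2.47. For all rows the closest pairs lie at 0.10 to 0.16 and the label pairs at 0.19 to 0.33.

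Genes with the most similar courses over the 14 arrays were named for the 15 wide-ranging beta rows, 3 for each. PCDHB5 was most like EDNRB, the endothelin receptor type B (r = 0.97), and the interferon-induced genes MX1 (r = 0.95) and IFIT1 (r = 0.95). PCDHB2 was most like LHX9, a homeobox gene (r = 0.98). PCDHB3 was most like KCNN4, a calcium-activated potassium channel (r = 0.98). SEMA4F, a semaphorin, was named for 6 rows, PCDHB8, PCDHB10, PCDHB11, PCDHB12, PCDHB14 and PCDHB16. These are the highest of many correlations and carry no test.

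Most genes beside the clusters varied less than most beta rows. SLC25A2 and TAF7, which lie between the beta and gamma clusters, ranged over 0.45 and 0.60 log2. Of the 5 nearest genes on each outer side, 9 ranged over 0.35 to 0.95 log2. DND1, an RNA-binding protein gene, ranged over 2.61, wider than some beta rows such as PCDHB4 at 2.24. Pearson's r of these neighbours with the beta median ran from -0.83 for HARS1 to 0.81 for ARAP3, with DND1 at 0.69.

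The solitary protocadherins, which lie outside the clusters, had no member past the threshold in any of the 3 contrasts or the trend. Of all 28869 rows, 0 passed in each contrast and 81 (0.281%) in the trend, so the lack of calls says little about so few genes. The widest of the 10 measured was PCDH10, at 9.37 to 10.01 log2 on the 6 arrays from A50 replicate 2 to A95 replicate 1 and at 6.46 to 7.66 on the other 8. PCDH10 was thus low on A95 replicate 2 and B96 replicate 1, at 6.94 and 6.46, where most beta rows were highest. The 19 classical and other cadherins measured also held 0 calls, with CDH2, or N-cadherin, the widest at 1.65 log2.

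Factors known to act at the clusters or on their proteins also held 0 calls. Over all rows 0 of 28869 were called in each contrast and 0.281% in the trend, so 0 calls in short lists say little about these genes. CTCF ranged over 0.86 log2, and of the 14 CTCF and cohesin genes the widest was ESCO2, a cohesin acetyltransferase, at 2.63. At an unadjusted p under 0.05, 5 of these 14 had a positive slope over passage, against 9.89% of all rows. Among them was SMC1A, a cohesin subunit, at 0.18 ± 0.040 log2 per 10 passages (limma adjusted p = 0.0692). Among 15 silencing factors the widest was UHRF1, which helps copy DNA methylation, at 1.93, while SMCHD1, a repressor of these clusters in mouse, ranged over 0.42 and DNMT3B over 0.53. Among 11 signalling partners the widest was FYN, a tyrosine kinase, at 2.60. Median slopes per 10 passages were 0.03 for solitary protocadherins, 0.02 for cadherins, 0.03 for CTCF and cohesin, -0.0044 for silencing factors and -0.0012 for signalling partners, against 0.01 over all rows.

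Of 12 neuron markers 11 were measured, none listed at 0, with mean levels per group of 6.996 to 7.013 log2 on primary arrays, 6.95 to 7.08 on A39, 7.11 to 7.12 on A50, 7.14 to 7.15 on A58, 7.09 to 7.29 on A67, 7.17 to 7.18 on A95 and 7.07 to 7.30 on B96. B96 replicate 1 had the highest median deviation of these markers from their own means, 0.29 log2, and A95 replicate 2 had 0.15. Of the 11, RBFOX3 and SNAP25 ranged most widely, over 1.54 log2 each. RBFOX3 went the other way, at 7.29 on A95 replicate 2 and 6.83 on B96 replicate 1 against 7.85 to 8.37 on the other 12. The part of the neuron markers in the beta levels was not tested. Median deviations of the other marker lists on A95 replicate 2 and B96 replicate 1 were -0.30 and -0.31 for fibroblasts. The values were 0.11 and 0.06 for glia, 0.03 and 0.00 for endothelium, 0.02 and -0.08 for epithelium and 0.15 and 0.04 for blood cells. On the same 2 arrays TEK was low, at 6.77 and 6.79 log2 against 9.18 to 10.76 on the other 12. PECAM1 was high there, at 8.44 and 7.83 against 6.17 to 7.04, so the endothelial median hides opposite shifts. S100A4 ranged most widely of the fibroblast markers, over 5.11 log2, and TEK of the endothelial ones, over 3.99. In blood cells, epithelium and glia the widest were HBB at 2.91, KRT19 at 2.40 and OLIG2 at 1.05.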

How the data were processed

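The authors deposited 1 table of log2 values, given to 2 decimals, with 28869 rows over 14 arrays. The log base was read from the range of the values. How they corrected background, summarised probes and normalized arrays is not stated in the labels used here. Row symbols come from the platform's annotation table, and RefSeq's gene table updated them by gene ID.

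Members and gene lists were chosen with earlier results of these data known. Named genes are beta rows with a range of 2 log2 or more, the 3 brightest and dimmest rows, the highest and lowest difference in each comparison, the widest gene of each list, the 3 most correlated genes, and the clusters' neighbours. Medians over rows stand for lists.

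A mean per group was fitted with limma 3.58.1 in R 4.3.3 to all 14 arrays, 7 groups of 2 with 7 residual and 3.43 prior degrees of freedom. A slope per 10 passages was fitted to the 10 arrays labelled A. P-values were Benjamini-Hochberg adjusted over all rows, two-sided, with a threshold of 0.05. The fits were tested on simulated data. The number of arrays limits the precision, and the table holds no detection calls. Alternatives were a replicate block, quantile normalization, centring, leaving out rows whose mean lay under the 30th percentile, an intensity trend with a robust prior, a random block and ranks for the trend, and leaving out each array. Leaving out A95 replicate 2 and B96 replicate 1 together was chosen after seeing the data. Promoter letters came from RefSeq, and no protein sequences were used here.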

Additional observations from a re-analysis of the deposited data

How the results depend on the processing

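The counts of rows past the threshold changed most in the passage trend, from 81 to 159 with quantile normalization, 429 with centred arrays, 271 with the filter, 132 with the intensity trend, 729 with the random block and 489 with ranks, and to between 0 and 571 when 1 array was left out. Protocadherin rows past it in the trend, 0 as reported, numbered 0 with quantile normalization, 0 with the intensity trend, 2 with centring, 2 with the filter, 3 with the random block, 3 with ranks, and 0 to 3 with 1 array left out. The within-passage correlation behind the random block was -0.16. Leaving out 1 array gave 0 to 6 rows in A39 versus primary, 0 to 4 in A95 versus A39 and 0 to 3 in B96 versus A95. With 1 array left out, the median over beta rows ran from 0.10 to 0.60 log2 in A39 versus primary, 0.50 to 2.04 in A95 versus A39, -1.45 to 0.51 in B96 versus A95 and 0.0675 to 0.271 per 10 passages in the trend. The arrays left with no duplicate were assumed to vary like the others. The range of the beta median over arrays was 1.745 log2 without A95 replicate 2 and B96 replicate 1, and 2.60 to 2.855 with 1 array left out. PCDHB5 in A39 versus primary was -0.23 without primary replicate 1 (-0.23 to 4.50 over all arrays left out). In B96 versus A95, PCDHB4 was -0.30 without A95 replicate 1 and -0.38 without B96 replicate 1 (-0.38 to 0.96), and PCDHB8 was 0.28 without B96 replicate 2 (-2.71 to 0.28). The cause of these changes was not tested.

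Arrays with the same replicate number did not deviate together: over 21 pairs of labels the correlation of deviations ran from -0.53 to 0.20, 4 were over 0.1, and 2 of 14 arrays correlated best with their own number. With the replicate number as a block, the trend had 74 rows past the threshold, 2 of them protocadherins, PCDHB8 (limma adjusted p = 0.0377) and PCDHB13 (limma adjusted p = 0.0489), and no other count of calls changed. The filter on dim rows left out PCDHB1, PCDHB3, PCDHB4, PCDHB15 and PCDHB17P.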
